A study of Homo sapiens with 30 samples.

Results

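A pair of engineered fibre-shaped materials was set side by side in human macrophage-like cells: multi-walled carbon nanotubes (MWCNT) and titanium dioxide nanobelts (TiO2-NB), each at 100 µg/ml and each after 1 h. The members are all arrays titled for those conditions, 3 with MWCNT and 3 with TiO2-NB, 6 of the 30 arrays of the series. The cells were THP-1, a human acute monocytic leukaemia line that grows in suspension. Before exposure every group, controls included, had received 82 nM phorbol 12-myristate 13-acetate (PMA) for 24 h, which makes THP-1 cells adhere and take on macrophage features, and had then been washed, scraped, counted and plated again; particles were added in the medium. The 30 arrays formed 10 groups of 3: a control without particles (0 µg/ml), MWCNT at 10 and 100 µg/ml and TiO2-NB at 10 and 100 µg/ml, each at 1 h and at 24 h. The labels call the 3 arrays of a group biological replicates without saying whether they came from separate cultures, so p-values measure the spread between these samples, which may be technical. The line is 1 leukaemia-derived cell line, and the controls had been treated with PMA and scraped like all the other cells.

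Macrophages take up particles by phagocytosis and meet long fibres that they cannot fully enclose. Known early responses of such cells include immediate early genes, whose transcription needs no newly made protein, then chemokines, cytokines and the prostaglandin enzyme cyclooxygenase-2. Fibres that reach the lysosome can damage its membrane and start the NLRP3 inflammasome, while carbon materials can carry or imitate ligands of the aryl hydrocarbon receptor (AhR), a transcription factor that switches on genes such as CYP1B1 and TIPARP.

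Levels are log2 values after robust multi-array averaging (RMA), in which 1 unit is a doubling of signal, and 10050 genes were tested. The median value per array ran from 6.35 to 6.46, and within groups no pair of arrays correlated below 0.994 over all probe sets. RMA pulls arrays to a common distribution, so near-equal medians are built in and do not show that the samples were alike. Of the markers that define the labelled cell type, ITGAM (CD11b), LYZ (lysozyme) and CSF1R (the M-CSF receptor) lay above 91.3%, 85.4% and 88.3% of the tested genes in mean signal, while CD14 and SPI1 lay above 43.9% and 44.6%; CD68 was not among the tested genes. None of the 17 monocyte and promyelocyte markers and none of the 14 macrophage markers was called different between the materials.

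The 2 materials left small differences after 1 h. In limma, fitted over all 30 arrays and adjusted over 10050 genes by Benjamini-Hochberg, 143 genes had an adjusted p under 0.05 (1.42% of those tested): 114 were higher with MWCNT (1.13%) and 29 lower (0.289%). Of these, 13 differed by 1.5-fold or more. The smallest adjusted p was 0.0141, the median absolute difference over all genes was 0.09 on the log2 scale, and 1459 genes (14.5%) had an unadjusted p under 0.05, against 502.5 that chance alone would give. After cyclic loess scaling of the same arrays the split was 92 higher and 46 lower.

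Samples of equal replicate number deviated together in these groups. With the replicate number as a block over the 15 arrays of 1 h, 230 genes were called (2.29%), 186 higher (1.85%) and 44 lower (0.438%) with MWCNT, of which 108 were among the 143. Over the 12 arrays of 1 h whose equal numbers correlated (the control, MWCNT at either dose, and TiO2-NB at 100 µg/ml), a set chosen after those correlations had been seen, 582 genes were called (5.79%), 358 higher (3.56%) and 224 lower (2.23%), with 137 among the 143. Without the block, leaving out 1 array moved the count of 143 to 76, 10 and 59 without MWCNT replicates 1, 2 and 3, and to 6 and 18 without TiO2-NB replicates 2 and 3. With the 12-array block, leaving out replicate 2 or replicate 3 from every group left 0 calls (1552 and 1528 genes with an unadjusted p under 0.05 in limma).

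Most called genes lay low on the arrays. Mean signal was below the array median of 6.41 for 101 of the 143 (70.6%), against 31.5% of all tested genes, and above 8 for 11 of them, against 43.3% of all. In 4 bins of equal size by mean signal, from the lowest to the highest, the called genes numbered 84, 43, 11 and 5. Requiring a signal above the array median in at least 3 arrays left 0 calls among 7410 genes without the block (779 with an unadjusted p under 0.05 in limma). With the 12-array block the same filter left 353 calls, and 217 of those were lower with MWCNT against 136 higher.

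**Figure D1:**
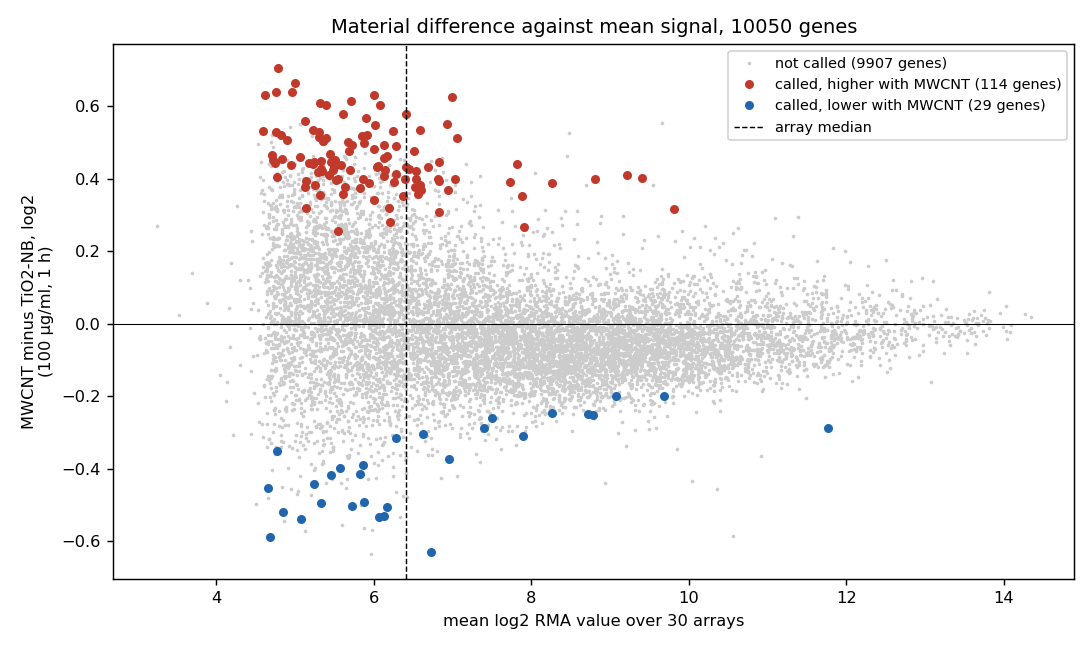
MWCNT minus TiO2-NB difference (log2, vertical) against mean log2 RMA value over the 30 arrays (horizontal) for 10050 genes. Grey points were not called, red points are the 114 genes called higher with MWCNT and blue points the 29 called lower; most lie left of the dashed line at the array median.

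Among the 11 called genes with a mean signal above 8, which were singled out after their values had been seen, the MWCNT level was the lower one in 6. RCAN1, an inhibitor of the phosphatase calcineurin that cells induce when calcium rises, had the strongest signal of the called genes. RCAN1 read 11.03, 11.08 and 11.17 in the MWCNT arrays, 11.35, 11.28 and 11.51 in the TiO2-NB arrays, and 10.96, 11.02 and 11.08 in the controls. All 3 TiO2-NB arrays were above all MWCNT and control arrays. The difference was −0.29 (SE 0.06, limma adjusted p = 0.0267; 0.0182 with the 12-array block), or 1.22-fold. The other RCAN1 probe sets gave −0.39 (unadjusted p = 0.00179) and −0.39 (unadjusted p = 0.00808). TiO2-NB exceeded the control by 0.36 (limma adjusted p = 0.011), and MWCNT by 0.08, which was not called. The call was lost when either MWCNT replicate 1 or 2, or TiO2-NB replicate 2 or 3, was left out, with differences from −0.34 to −0.22.

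MAN2A1, a Golgi mannosidase that trims N-glycans, read 8.83, 8.85 and 8.90 with MWCNT and 9.10, 9.03 and 9.19 with TiO2-NB, a difference of −0.25 (SE 0.06, limma adjusted p = 0.0485). TMEM50B, a membrane protein, read 8.21, 8.14 and 8.11 with MWCNT and 8.41, 8.37 and 8.41 with TiO2-NB (−0.25, limma adjusted p = 0.0235). In both genes the groups were apart, and the controls, at 8.76 to 8.86 and 8.14 to 8.25, lay nearer to MWCNT. PDCD2 (−0.25), TRIAP1, a small inhibitor of apoptosis that p53 induces (−0.20), and TTC1 (−0.20) were the others, at limma adjusted p of 0.0369, 0.0498 and 0.0359. Other PDCD2 probe sets gave −0.14 and 0.01.

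Of the 5 such genes higher with MWCNT, FAXDC2, a member of the fatty acid hydroxylase family, read 9.25, 9.44 and 9.25 with MWCNT, 8.94, 8.87 and 8.90 with TiO2-NB and 9.34, 9.24 and 9.11 in the controls. The TiO2-NB arrays were the low ones, and the difference was 0.41 (SE 0.09, limma adjusted p = 0.0241). DBT, a subunit of the complex that breaks down branched-chain keto acids, read 10.08, 10.17 and 10.17 with MWCNT against 9.82, 9.86 and 9.78 with TiO2-NB (0.32, limma adjusted p = 0.0432), while its other probe sets gave 0.07 and 0.03. SLC35E1, of the nucleotide-sugar transporter family, and UBE2D4, a ubiquitin-conjugating enzyme, differed by 0.40 and 0.39 (limma adjusted p = 0.0466 and 0.0302). Other SLC35E1 probe sets gave 0.12 and 0.11. The 4 further UBE2D4 probe sets gave 0.32, 0.09, 0.08 and −0.04. The last was DTX2P1-UPK3BP1-PMS2P11, at 0.40, a read-through transcript of pseudogenes with near-identical copies, so its value is uncertain. Its other probe set gave 0.03 (limma unadjusted p = 0.669).

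A set of 28 named genes, most of them stress and cytokine genes, was compared, and 27 were tested, as HSPA1A had no probe set of its own. The set also held genes of other roles, for example in cholesterol synthesis and efflux (HMGCS1 and ABCG1). None of the 27 was called without a block (143 of 10050 genes were, 1.42%), and none with the block over 15 arrays (2.29%). With the 12-array block 7 were called, against 5.79% of all genes, and in all 7 the MWCNT level was the lower one. Of all genes called in that fit with a mean signal above 8, 110 were lower with MWCNT and 25 higher. Mean signals of the 27 ran from 5.88 to 13.08. The difference lay below 0 in 22 of the 27, with a median of −0.15, against −0.03 over all tested genes.

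**Figure D2:**
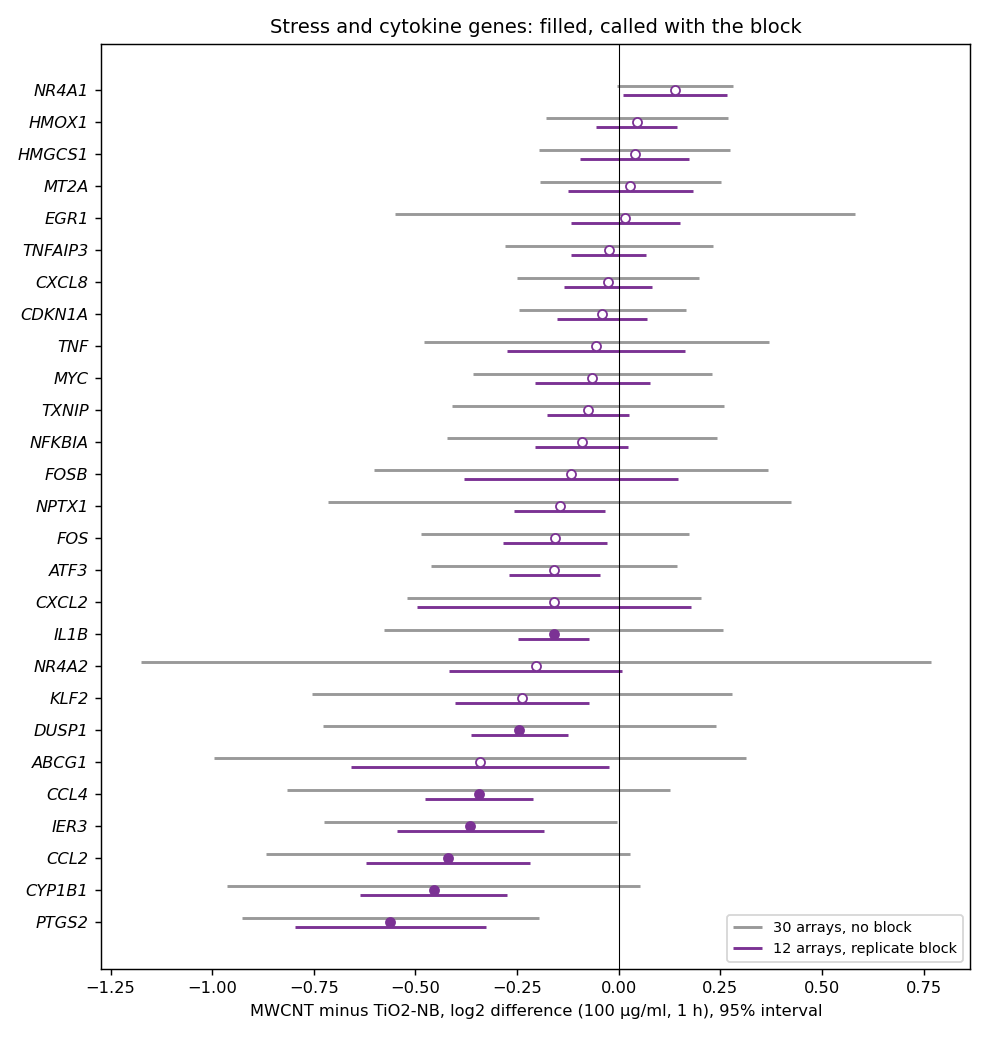
MWCNT minus TiO2-NB log2 difference at 100 µg/ml and 1 h (points) for 27 named genes, most of them stress and cytokine genes, with 95% intervals from the fit of 30 arrays without a block (grey) and of 12 arrays with the replicate number as a block (purple). Filled points mark the 7 genes called with the block, all below 0, from IL1B at −0.16 to PTGS2 at −0.56.

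PTGS2 encodes cyclooxygenase-2, the inducible enzyme that starts prostaglandin synthesis. Its values were 5.63, 5.56 and 5.65 with MWCNT, 6.03, 6.16 and 6.33 with TiO2-NB and 5.46, 5.79 and 5.80 in the controls. Every TiO2-NB array was above every MWCNT and control array. MWCNT lay 0.56 below TiO2-NB (a log2 difference of −0.56, 95% interval −0.93 to −0.20, 1.48-fold), at limma adjusted p = 0.105 without a block, 0.0654 with the 15-array block and 0.024 with the 12-array block. Of the 11 tested genes of the prostaglandin pathway, none was called without a block and 3 were lower with MWCNT under the 12-array block (2.23% of all genes were). The other 2, picked out by that fit, were PLA2G4A, the phospholipase that frees arachidonic acid, at −0.25 (limma adjusted p = 0.0467 with the 12-array block), and ALOX5AP, the partner of 5-lipoxygenase, at −0.18 (0.0373).

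CCL4, one of the chemokines that draw leukocytes to a site, read 10.01, 9.57 and 9.32 with MWCNT and 10.39, 9.85 and 9.69 with TiO2-NB. The groups overlapped, yet within each replicate number the TiO2-NB array was the higher. The CCL4 difference was −0.34, with a limma adjusted p of 0.54 without a block and 0.0205 with the 12-array block. CCL2, which attracts monocytes, read 6.74, 7.12 and 6.29 with MWCNT against 6.87 to 7.54 with TiO2-NB, again lower within each number, a difference of −0.42 (limma adjusted p = 0.387, and 0.0338 with the 12-array block). Of 9 CC and 9 CXC chemokines tested, 3 and 1 were called lower with MWCNT under that block, where 2.23% of all genes were called lower, and none without it. CXCL3, a neutrophil attractant picked out by that fit, was the 1 among the CXC chemokines, at −0.28 (limma adjusted p = 0.0429 with the 12-array block). CXCL8, the neutrophil attractant interleukin-8, differed by −0.03 (95% interval −0.25 to 0.20), with 12.09, 12.02 and 12.09 with MWCNT against 12.21, 11.95 and 12.12 with TiO2-NB.

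Of 13 inflammatory cytokines, none was called without a block. HBEGF, a growth factor of the EGF family that macrophages shed, was picked after its values had been seen. It read 9.08, 9.09 and 9.14 with MWCNT, 9.27, 9.33 and 9.57 with TiO2-NB and 9.31, 9.29 and 9.43 in the controls. Here the MWCNT arrays were the low ones, below every control and TiO2-NB array. HBEGF differed by −0.29 (limma adjusted p = 0.0649, 0.0356 with the 15-array block and 0.025 with the 12-array block). IL1B, which encodes interleukin-1β, differed by −0.16 (limma adjusted p = 0.0451 with the 12-array block), and TNF by −0.06 (95% interval −0.48 to 0.37).

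Among immediate early genes, the transcription factors FOS, EGR1 and NR4A1 differed by −0.16, 0.02 and 0.14, and no member of the NR4A and EGR list (6 tested), the AP-1 list (11 tested) or the KLF list (10 tested) was called in any of these 3 fits. IER3, a stress gene that modulates survival, read 9.75, 9.82 and 9.86 with MWCNT, 10.24, 10.08 and 10.21 with TiO2-NB and 10.17, 9.81 and 10.17 in the controls. The MWCNT and TiO2-NB arrays did not overlap, and 1 control array lay with the MWCNT arrays. The IER3 difference was −0.36 (SE 0.17), at limma adjusted p of 0.337 without a block and 0.0366 with the 12-array block. DUSP1, a phosphatase that switches MAP kinases off, differed by −0.24 (limma adjusted p = 0.0354 with the 12-array block). GADD45B, a stress sensor of the p38 pathway that was picked out by that fit, read 8.85, 9.99 and 8.86 with MWCNT against 9.46, 10.19 and 9.36 with TiO2-NB (−0.44, limma adjusted p = 0.0184 with the 12-array block and 0.592 without a block).

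Among the AhR targets, TIPARP, a mono-ADP-ribosyltransferase that feeds back on the receptor, was picked after its values had been seen. It read 10.49, 11.43 and 10.76 with MWCNT, 11.35, 11.79 and 11.30 with TiO2-NB and 11.51, 11.88 and 11.33 in the controls. CYP1B1, a cytochrome P450 that oxidises aromatic hydrocarbons, read 9.95, 10.13 and 10.79 with MWCNT, 10.56, 10.61 and 11.06 with TiO2-NB and 10.94, 10.87 and 11.26 in the controls. In both, the groups overlapped but each MWCNT array was below the TiO2-NB and control arrays of its number. The TIPARP difference was −0.58 (limma adjusted p = 0.135; 0.0184 with the 12-array block), and that of CYP1B1 −0.46 (0.414; 0.0215 with the 12-array block). Of the 8 tested genes of the AhR list, these 2 were called lower under that block (2.23% of all genes were) and none without it. Against the control, MWCNT differed by −0.68 in TIPARP and −0.73 in CYP1B1, neither called in either fit (with the 12-array block, limma adjusted p = 0.115 and 0.0608). THBD, the endothelial and monocyte thrombin receptor thrombomodulin, was also picked after its values had been seen. It differed by −0.43 between the materials (limma adjusted p = 0.463, 0.0289 with the 15-array block and 0.022 with the 12-array block).

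**Figure D3:**
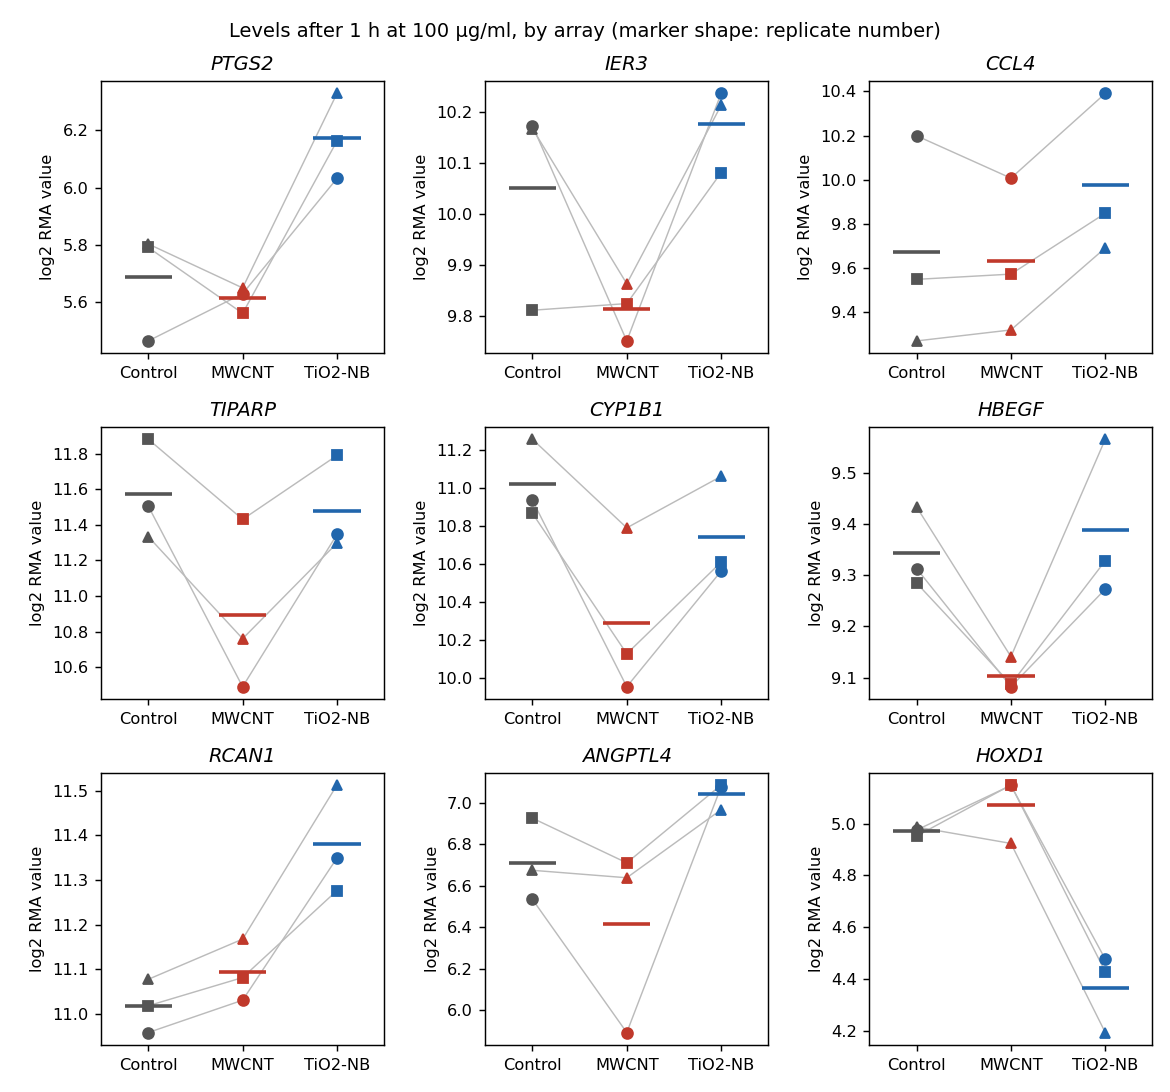
Log2 RMA value (vertical) of 9 genes in the control, MWCNT and TiO2-NB arrays at 100 µg/ml and 1 h. Each point is 1 array, marker shapes and grey lines join arrays of the same replicate number, and bars are group means of 3; PTGS2 and RCAN1 are high in all 3 TiO2-NB arrays, while HBEGF is low in all 3 MWCNT arrays.

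Stress and metabolic programmes showed few differences at 1 h. HMOX1, the heme oxygenase that NRF2 induces under oxidative stress, read 10.90, 10.59 and 10.95 with MWCNT against 10.85, 10.57 and 10.89 with TiO2-NB, a difference of 0.04 (95% interval −0.18 to 0.27). MT2A, a metallothionein that binds zinc and other metals, differed by 0.03 (95% interval −0.19 to 0.25), and CDKN1A, the p53 target p21, by −0.04 (95% interval −0.24 to 0.16). None of 23 NRF2 targets, 18 heat shock genes, 11 inflammasome genes, 13 Toll-like receptor genes or 26 lysosomal genes was called without a block or with the 12-array block. Over 34 lists of this kind, 2 of 548 tested members were called without a block (0.365%, against 1.42% of all genes), and 32 lists had no call. With the 12-array block 32 of 548 were called (5.84%, against 5.79% of all genes), 29 lower and 3 higher with MWCNT. All genes called in that fit were 224 lower and 358 higher. Those with a mean signal above 8 were 110 lower and 25 higher, so a lean to lower values was not particular to the lists. The 3 higher list members were CHAC1, which breaks down glutathione under the integrated stress response, IFIT2, an interferon-induced RNA-binding protein, and STAB1, a scavenger receptor, at 0.38, 0.40 and 0.45. Among the lower ones were the mitotic genes NDC80, CENPF and UBE2C, at −0.25, −0.21 and −0.19, and the respiratory complex I subunits NDUFS1 and NDUFV2, at −0.21 and −0.15. These were picked out by that fit. List medians lay between −0.13 and 0.01, and 33 of the 34 were below 0, beside a median of −0.03 over all genes.

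The 2 list members called without a block were both genes of lipid handling. ANGPTL4, a PPAR target that inhibits lipoprotein lipase, read 5.89, 6.71 and 6.64 with MWCNT, 7.08, 7.09 and 6.97 with TiO2-NB and 6.53, 6.93 and 6.67 in the controls. MWCNT replicate 1 was the lowest by a wide margin. The difference was −0.63 (SE 0.13, limma adjusted p = 0.0241; 0.0654 with the 15-array block), or 1.55-fold, and it was −0.37 and not called when that array was left out; it was also not called without TiO2-NB replicate 2 or 3, over a range of −0.78 to −0.37. LPCAT3, an LXR target that remodels membrane phospholipids, differed by −0.31 (limma adjusted p = 0.0385), but a second LPCAT3 probe set differed by 0.21 (unadjusted p = 0.0449).

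HOXD1, a homeobox transcription factor of the body plan, led the genes higher with MWCNT. It read 5.15, 5.15 and 4.92 with MWCNT, 4.48, 4.43 and 4.20 with TiO2-NB and 4.97, 4.95 and 4.99 in the controls. The TiO2-NB arrays were low against both other groups, and the difference was 0.71 (SE 0.12, limma adjusted p = 0.0183), or 1.63-fold. PLCB1, a phospholipase C that G proteins activate, read 4.96, 5.31 and 5.20 with MWCNT and 4.55, 4.26 and 4.66 with TiO2-NB (0.66, limma adjusted p = 0.0413). FST, the activin-binding protein follistatin, read 6.61, 6.63 and 6.57 with MWCNT against 6.22, 6.03 and 5.82 with TiO2-NB, and WNT6, a Wnt ligand, 7.10, 7.20 and 7.11 against 6.70, 6.44 and 6.39. Both pairs of groups were apart, by 0.58 and 0.62 (limma adjusted p = 0.0219 and 0.0267). The other WNT6 probe sets went the other way, at −0.26 (unadjusted p = 0.0347) and −0.07, and the mean over WNT6 probe sets differed by 0.096.

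Others of the 15 largest were OR2S2, an olfactory receptor (0.64), ZNF507, a zinc finger protein (0.63), RNF208, a RING finger protein (0.61), HLA-DOB, a chain of the class II peptide-loading modulator (0.58), CYP1A2, a liver cytochrome P450 (0.57), and USH1C, the hair-cell scaffold harmonin (0.56), all with limma adjusted p from 0.0218 to 0.0354. MYH11, the smooth muscle myosin heavy chain, differed by 0.63 on the probe set used, but its other 3 probe sets gave 0.52, −0.05 and −0.28. CYP1A2 is itself an AhR target, and it was higher with MWCNT, opposite in sign to TIPARP and CYP1B1, at a mean signal below the array median. Its second probe set gave 0.14 (limma unadjusted p = 0.197), and that of USH1C gave 0.12 (0.333). GDF5, a ligand of the BMP family, was the 1 gene of the 143 called with each of the 6 arrays left out in turn. It was singled out for that: it read 5.94, 6.23 and 5.98 with MWCNT, 5.57, 5.41 and 5.61 with TiO2-NB and 6.04, 5.91 and 5.82 in the controls, a difference of 0.52 (limma adjusted p = 0.0141).

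Lower with MWCNT, after ANGPTL4, were several transcription factors. NPAS1, a neuronal factor of the bHLH-PAS family, read 5.57, 5.84 and 5.83 with MWCNT, 6.33, 6.34 and 6.16 with TiO2-NB and 5.97, 6.28 and 5.91 in the controls. The control mean lay between the materials, with 1 control array among the TiO2-NB arrays, and the difference was −0.53 (SE 0.10, limma adjusted p = 0.0183). HIC1, a transcriptional repressor, and ETV2, an ETS factor of vessel development, differed by −0.52 and −0.45 (limma adjusted p = 0.0267 and 0.0235). The homeobox genes NKX2-8 and SIX5 differed by −0.50 and −0.49 (0.0275 and 0.0235). NTN3, a netrin, TONSL, a replication-fork repair protein, ZNF205, a zinc finger protein, CADM4, an adhesion molecule, and SERGEF made up the other named ones, from −0.59 to −0.40. Further CADM4 probe sets gave −0.02 and 0.0044. Their signals were low: over both groups, the NTN3 values ran from 3.98 to 4.96.

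Marker lists of lymphocytes, of fibroblasts and endothelium, and of epithelium were compared as well. Not all of these genes were low in signal. On the lymphocyte list GNLY and NKG7 lay above 80.0% and 46.4% of the tested genes in mean signal. The fibroblast and endothelial markers COL1A1 and VWF lay above 56.1% and 51.8%. By contrast CD2, CD3E and CD79B lay above 5.4%, 18.2% and 9.9%. Of 10 tested lymphocyte markers 2 were called higher with MWCNT and 1 lower (1.42% of all genes were called), and 7 had an unadjusted p under 0.05 in limma (14.5% of all genes had). CD2, an adhesion receptor of T and NK cells, read 5.04, 5.34 and 5.15 with MWCNT against 4.61, 4.55 and 4.44 with TiO2-NB (0.64, limma adjusted p = 0.0284). CD3E, a chain of the T-cell receptor complex, read 5.71, 5.94 and 5.98 against 5.39, 5.37 and 5.45 (0.48, limma adjusted p = 0.0183). CD79B, a chain of the B-cell receptor, went the other way, with 4.87, 4.96 and 5.06 with MWCNT against 5.45, 5.58 and 5.19 with TiO2-NB (−0.44, limma adjusted p = 0.0267). CD3D, another chain of the T-cell receptor complex, differed by −0.02. With the 12-array block 2 of the 10 were called higher and 2 lower (3.56% and 2.23% of all genes were). The mean level over the 10 markers ran from 5.83 to 6.06 in the MWCNT arrays, from 5.82 to 5.96 with TiO2-NB and from 5.94 to 6.07 in the controls. These ranges overlapped, but they leave the replicate numbers aside. GNLY, 1 of the 10, read 9.13, 10.42 and 9.52 with MWCNT and 9.08, 10.46 and 9.54 with TiO2-NB. Over 7 fibroblast and endothelial markers the means ran from 6.44 to 6.63, from 6.30 to 6.41 and from 6.51 to 6.54, with the TiO2-NB arrays below the others. None of these 7 was called without a block, and 5 had an unadjusted p under 0.05 in limma (14.5% of all genes had). With the 12-array block 1 of them, COL1A1, was called higher with MWCNT (3.56% of all genes were). The 7 epithelial markers held no call. The part of other cells in the result was not tested.

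Signal level and group moved together across all genes. In the lowest of the 4 signal bins the median difference between the materials was 0.06, and in the 3 higher bins it was −0.02, −0.07 and −0.04. The same medians were −0.07, 0.04, 0.09 and 0.04 for TiO2-NB minus control, and −0.0043, 0.026, 0.018 and −0.0025 for MWCNT minus control. Per array, the median deviation of the third bin minus that of the lowest was 0.0775, 0.114 and 0.168 in the 3 TiO2-NB arrays at 100 µg/ml. It was 0.0364, −0.0864 and 0.0100 in the MWCNT arrays, and no other array of 1 h exceeded 0.0378. Those TiO2-NB arrays lay above every other array of that time (exact permutation test, two-sided, p = 0.1 against each other group, the smallest that 3 against 3 allows). The third and lowest bins are those with the highest and lowest medians for TiO2-NB minus control on these same arrays. The permutation test of their difference is therefore no separate support. The part of this shift in the called genes was not tested beyond the scaling alternatives.

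**Figure D4:**
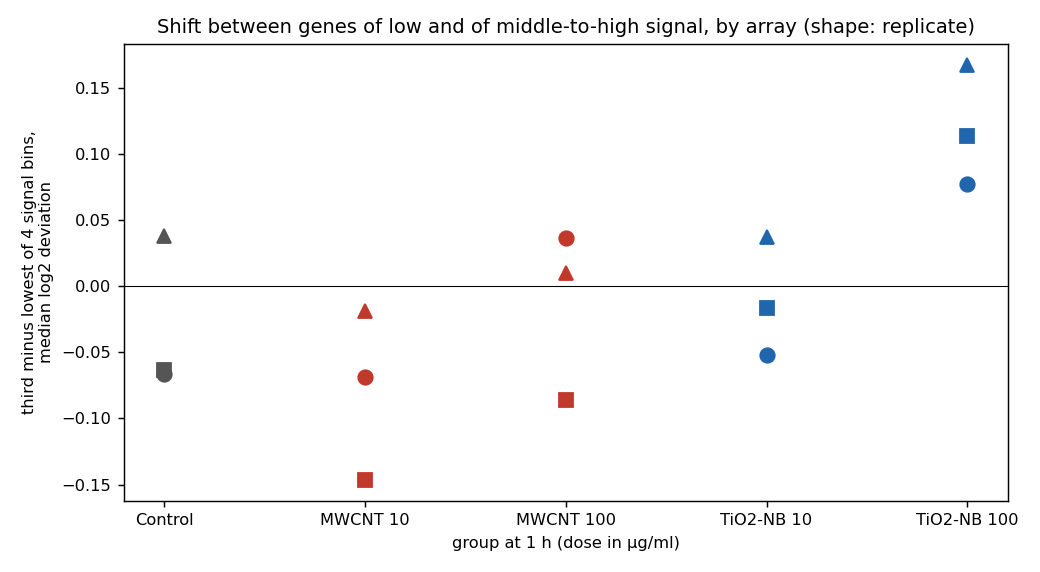
Median log2 deviation of genes in the third of 4 bins by mean signal minus that of the lowest bin (vertical), for each of the 15 arrays of 1 h by group and dose in µg/ml (horizontal); marker shapes are replicate numbers. The 3 TiO2-NB arrays at 100 µg/ml, at 0.0775 to 0.168, lie above all the others.

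A sign of RNA quality was compared as well. The difference between the 3′ and 5′ probe sets of GAPDH on the log2 scale, which grows as RNA is shortened, ran from 0.327 to 0.423 with MWCNT, from 0.294 to 0.317 with TiO2-NB and from 0.246 to 0.395 in the controls. For ACTB the ranges were 0.549 to 0.702, 0.558 to 0.760 and 0.501 to 0.749. The MWCNT arrays were above the TiO2-NB arrays for GAPDH, and the ranges overlapped for ACTB.

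Of the 143 called genes, 141 had no overlap between the 3 MWCNT and 3 TiO2-NB arrays (17.8% of all tested genes had none), and in all 143 each replicate pair had the same sign. The calls were made on these same arrays, so both results follow largely from the call and are no separate support. Probe sets were also compared where a gene had several: 41 of the called genes had 65 further probe sets above the filter, of which 43 had the same sign, 18 of them with an unadjusted p under 0.05, while 5 went the other way with such a p. For the other 102 called genes no second probe set passed.

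Each material was next set against the control of 1 h, which shares arrays with the comparison above, so the values are given side by side only. MWCNT minus control gave 0 calls in limma (0% of 10050; 293 genes with an unadjusted p under 0.05), also 0 with either block. TiO2-NB minus control gave 116 calls (1.15%), 22 higher (0.219%) and 94 lower (0.935%), and 221 and 966 with the 15-array and 12-array blocks. Without a block that count was 2 and 0 when control replicate 1 or 2 was left out. The 114 genes higher with MWCNT than with TiO2-NB had a median of 0.07 for MWCNT minus control and −0.39 for TiO2-NB minus control, and 48 of them were called in the latter. For the 29 lower ones the medians were −0.15 and 0.23, and 4 were called in the latter. The TiO2-NB mean was farther from the control mean than the MWCNT mean was in 111 of the 114 and in 20 of the 29. That count was not made over all genes. Over all tested genes the median absolute difference from the control was 0.099 for TiO2-NB and 0.055 for MWCNT. The called genes were also chosen on these same arrays.

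The dose was lowered 10-fold in the 10 µg/ml groups. MWCNT minus TiO2-NB at 10 µg/ml and 1 h had 0 calls in limma (0%; 264 genes with an unadjusted p under 0.05, and 0 in each alternative run). Of the 114 genes higher at 100 µg/ml, 100 had the same sign at 10 µg/ml (87.7%, against 68.2% of all tested genes), with a median of 0.12, and of the 29 lower, 22 had (75.9%), with a median of −0.04. HOXD1 differed by 0.31 at 10 µg/ml, CD2 by 0.39 and ANGPTL4 by 0.09. The test of the difference between doses called 0 genes in limma (0%; 331 with an unadjusted p under 0.05, smallest adjusted p 0.0529), so no gene was shown to differ between the doses.

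After 24 h the same comparison at 100 µg/ml gave 2505 calls (24.9%), 1411 higher (14%) and 1094 lower (10.9%) with MWCNT. The difference between the 2 times was called in 2263 genes (22.5%). The 114 genes that were higher with MWCNT at 1 h mostly changed sign: 8 had the same sign at 24 h (7.0%, against 38.9% of all tested genes), and the median was −0.22. Of the 114, 39 were called lower with MWCNT at 24 h, where 10.9% of all genes were. Of the 114, 84 had a mean signal below the array median. Of all tested genes below it, 35.0% had the same sign at both times. Over all genes of the lowest signal bin, the median difference was 0.06 at 1 h and −0.11 at 24 h. The higher bins, in order of signal, had −0.02, −0.07 and −0.04 at 1 h and −0.01, 0.05 and 0.02 at 24 h. The part of this shift in the change of sign was not tested. The test between times called 106 of the 114. The 1 h difference that chose these genes is a term of that test, here and for the 29 lower ones. Shares above 22.5% are therefore partly built in. Of the 29 lower ones 13 kept their sign (44.8%), and 22 were called between times. At 24 h 1 of the 29 was called lower (10.9% of all genes were) and 5 were called higher (14% of all genes were). HOXD1, at 0.71 after 1 h, was at −0.36 after 24 h (limma adjusted p = 0.0346).

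**Figure D5:**
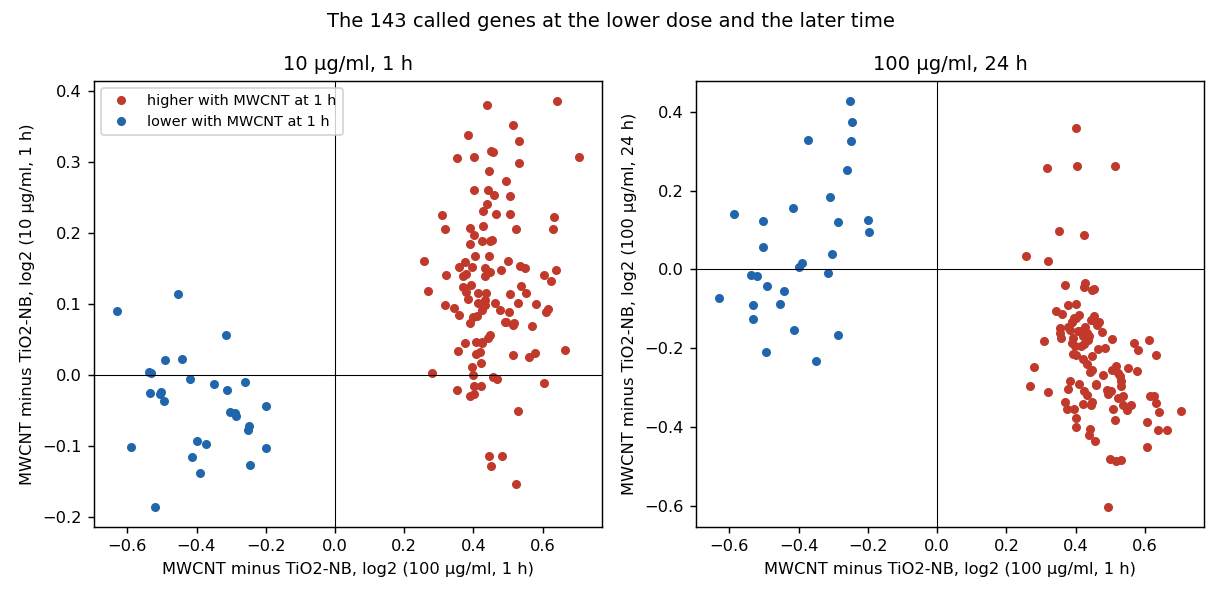
MWCNT minus TiO2-NB log2 difference of the 143 called genes at 100 µg/ml and 1 h (horizontal) against the same difference at 10 µg/ml and 1 h (left, vertical) and at 100 µg/ml and 24 h (right, vertical). Red genes were higher with MWCNT at 1 h: 100 of 114 lie above 0 in the left panel and 8 of 114 in the right.

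The genes with the largest changes between times were not called at 1 h without a block. NPTX1, a secreted neuronal pentraxin, differed by −2.95 at 24 h, or 7.75-fold, and by −0.15 at 1 h (95% interval −0.72 to 0.42). CYP1B1 went from −0.46 at 1 h to −2.58 at 24 h and TIPARP from −0.58 to −1.91, both with limma adjusted p under 0.05 for the difference between times. PTGS2 went from −0.56 to −1.43, and IER3 from −0.36 to −0.55, which between times was not called. Others chosen by the size of the change between times were FOXF1, a forkhead factor (−0.13 at 1 h and −2.29 at 24 h), NR4A2, an orphan nuclear receptor (−0.20 and −2.26), IL24, a cytokine of the interleukin-10 family (0.01 and −1.87), and CCR7, the lymph node homing receptor (0.18 and −1.72). In the other direction, the hyaluronan-degrading CEMIP went from −0.21 to 1.73, the adhesion molecule VCAM1 from −0.09 to 1.75, the interferon-induced IFI44L from −0.20 to 1.59, the acetyltransferase subunit NAA15 from −0.13 to 1.76, TM7SF3 from 0.01 to 1.80 and the receptor GPR18 from −0.36 to 1.43. At 1 h the unadjusted p of these 10 genes and NPTX1 was 0.208 or more.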

How the data were processed

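Total RNA of 30 samples (3 µg each, Affymetrix One-Cycle labelling per the labels' protocols) was hybridised to 1-colour arrays; the authors deposited 1 table of log2 values for 22277 probe sets, normalised by RMA per the submitters' processing notes, with no version given. Background correction and quantile normalisation within RMA pull arrays to a common distribution and compress low signals, and no scan dates or raw intensities were analysed here. Groups come from the sample titles. Genes were named through the platform table: 19064 probe sets had 1 gene, 1043 several and 2108 none, apart from 62 control features; 19052 symbols were updated through their Entrez number. Probe sets above the array's 25th percentile on 3 or more arrays passed the filter (15312), and each gene was represented by its passing probe set of highest mean value, giving 10050 genes.

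limma 3.58.1 in R 4.3.3 fitted the 10 group means over all 30 arrays (20 residual degrees of freedom), with eBayes and Benjamini-Hochberg adjustment over all genes; a call is an adjusted p under 0.05. The script was tested on simulated data. The number of arrays limits the precision: the median SE of the main difference was 0.103 and the median residual SD 0.128. Alternatives were median centring, cyclic loess, other filters, probe-set means, an intensity trend, fewer arrays, the replicate block and leaving out each array. Equal replicate numbers in the labels paired the samples: deviations from group means over 10050 genes correlated at 0.333, 0.601 and 0.451 between MWCNT and TiO2-NB at 100 µg/ml for numbers 1, 2 and 3, and at 0.333 to 0.728 among all groups of 1 h other than TiO2-NB at 10 µg/ml. There the same correlations were −0.480 to −0.320 for numbers 1 and 2, so a block over 12 arrays without that group was added after this was seen.

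Named genes were the 15 largest called differences in each direction without overlap and up to 4 called members of each of 39 lists. Also named were the 6 largest in each direction for the changes with dose and time, and 28 genes, mostly stress and cytokine genes. Those beyond the rule are said to be picked after their values. Some genes within the rule, such as members of multi-copy families, are left out. The members, lists and tests were chosen with earlier results of these data known.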

Additional observations from a re-analysis of the deposited data

Results flagged for a closer look

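For 17 named genes flagged here the difference between the materials at 100 µg/ml itself differed between 1 h and 24 h in limma, as an interaction term. They are not all the named genes with such a call. That test called 106 of the 114 genes higher with MWCNT at 1 h. The values below are the 1 h difference minus the 24 h difference on the log2 scale. It was 2.81 for NPTX1, 2.16 for FOXF1, 2.12 for CYP1B1, 2.06 for NR4A2 and 1.90 for CCR7. IL24 stood at 1.88, TIPARP at 1.32 and PTGS2 at 0.87. For PLCB1 it was 1.07 and for HOXD1 1.06, since these genes were higher with MWCNT at 1 h and lower at 24 h. On the negative side were CEMIP at −1.93, NAA15 at −1.89, VCAM1 at −1.84, IFI44L at −1.79, TM7SF3 at −1.79, GPR18 at −1.79 and ANGPTL4 at −0.56. Limma adjusted p values of these 17 ran from 1.06e-05 for IL24 to 0.0378 for ANGPTL4. Of these genes, HOXD1, PLCB1 and ANGPTL4 were called at 1 h without a block.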

How the results depend on the processing

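For MWCNT minus TiO2-NB at 100 µg/ml and 1 h, median centring, cyclic loess, no filter, probe-set means, an intensity trend and the replicate block over 30 arrays kept the count between 98 and 177, beside 143. The stricter filter gave 0, alone and with cyclic loess, only the 15 arrays of 1 h gave 23, and only the 6 arrays of both groups gave 0. Replicate blocks gave 230 (15 arrays), 0 (6 arrays), 582 (12 arrays) and 353 (12 arrays, stricter filter). Leaving out 1 array gave 6 to 127, and the 12-array block less 1 replicate number 0 to 577. For TiO2-NB minus control, beside 116, cyclic loess gave 68, the stricter filter 13, the trend 63, 15 arrays 26 and 6 arrays 0; replicate blocks gave 221, 685, 966 and 906 in the same order; leaving out 1 array gave 0 to 103, and the 12-array block less 1 number 0 in each case. MWCNT minus control stayed at 0 except for 4 genes, all lower, with the 12-array block and the stricter filter. The difference between doses had 0 calls, or 1 after cyclic loess, 2 with probe-set means, 1 with the 30-array replicate block, and 0 to 1 with 1 array left out. The difference between times ranged from 1711 to 2268 when 1 array was left out. The 10 µg/ml comparison had 0 calls in every alternative. Fits of fewer samples have fewer residual degrees of freedom; otherwise the cause was not tested. No named gene called without a block over 30 arrays changed sign in these alternatives. Of those called only with a replicate block, DUSP1, IL1B, NDC80 and ALOX5AP reached differences of 0.0024, 0.0089, 0.0014 and 0.041 when 1 array was left out without a block, none of them called. Signals near the array background limit what can be read from most called genes.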

Other observations

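The TiO2-NB arrays at 10 µg/ml and 1 h stood apart in their replicate numbers. Replicates 1 and 2 of that group correlated at −0.480 to −0.320 with the arrays of the same number in the other 4 groups of 1 h, as deviations from group means over 10050 genes, and at 0.329 to 0.679 with the arrays of the other number. Replicate 3 correlated at 0.378 to 0.454 with its own number. The deposited numbers were kept as they are throughout, and that group enters the main comparison only through the shared estimate of spread.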
